A study of Mus musculus with 2 samples.

Results

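Single-cell transcript counts are described here for 7 genes that encode growth factors of the alveolar niche, namely Fgf7, Fgf10, Fgf18, Hgf, Wnt2, Wnt5a and Pdgfa. The genes were chosen by name, and all 7 were found among the 27998 gene rows of both libraries. The cells were CD45- cells, that is cells without the leukocyte surface protein CD45, sorted from dissociated mouse lungs 7 days after labelling 4T1 cells had been given intravenously. 4T1 cells are murine breast cancer cells able to grow in the lung, and labelling 4T1 cells are known to release a cell-penetrating mCherry protein that neighbouring cells take up. A Cherry_positive library and a Cherry_negative library were made, so there is 1 library per group and no replicate spread. Both groups share the injected tumour cells and the time point. The labels name no strain, age or sex and do not say whether the mice had been irradiated or whether animals were pooled, and they do not place the Cherry_negative cells at any distance from the tumour.

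FGF7 and FGF10 are secreted by lung mesenchyme and signal through an epithelial isoform of FGFR2, FGF18 signals chiefly through FGFR3 and mesenchymal isoforms of its relatives, and HGF acts on the receptor MET. WNT2 is a mesenchymal Wnt ligand of the developing lung, and WNT5A signals largely through ROR2 and RYK. PDGFA runs the other way in the developing lung, where it is made by epithelium and acts on PDGFRA-bearing fibroblasts and myofibroblast precursors.

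The Cherry_positive library held 1826 barcodes and 10094853 UMIs (unique molecular identifiers, which count single transcripts), and the Cherry_negative library held 2861 barcodes and 11632459 UMIs. Median depth was 4324 UMIs per barcode in the Cherry_positive library and 2971 in the Cherry_negative library, and 13 barcodes occurred in both. After filtering, 1766 Cherry_positive and 2804 Cherry_negative cells formed 22 clusters, which were named from marker genes with the 7 growth factor genes left out. Each class name used below means cells like that type. The classes compared between libraries had 50 or more cells on both sides. They were alveolar fibroblasts with 866 Cherry_positive and 451 Cherry_negative cells, adventitial fibroblasts with 126 Cherry_positive and 114 Cherry_negative cells, myofibroblasts with 243 Cherry_positive and 132 Cherry_negative cells, and pericytes with 63 Cherry_positive and 51 Cherry_negative cells. General capillary cells numbered 121 in the Cherry_positive library and 925 in the Cherry_negative one, and Car4 capillary cells 82 in the Cherry_positive library and 305 in the Cherry_negative one. AT2 cells, the surfactant-making cells of the alveolus, numbered 22 in the Cherry_positive library and 448 in the Cherry_negative one, and AT1 cells, the flat gas-exchange cells, 5 in the Cherry_positive library and 57 in the Cherry_negative one. Carcinoma-like cells numbered 129 in the Cherry_positive library and 10 in the Cherry_negative one.

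Levels are given as CPM (counts of a gene scaled to all counts of the same class), and ratios are Cherry_positive over Cherry_negative. Intervals in parentheses are 95% intervals for counting error only, exact Poisson for levels. No test between groups was possible with 1 library each. A gene is counted as past 2-fold where its ratio is at least 2 or at most 0.5, among genes whose UMIs in the class came to 20 or more when the libraries were added up, and 18 pairs of gene and class reached that number. The class marker genes of the alveolar fibroblasts were themselves lower in Cherry_positive cells, with a summed level of 7530 CPM in Cherry_positive and 21676 CPM in Cherry_negative alveolar fibroblasts, and 10 of 12 were at least 2-fold lower. AT2 marker transcripts also differed in classes that do not make them. Their summed level was 210 CPM in Cherry_positive and 2161 CPM in Cherry_negative alveolar fibroblasts, against 318728 CPM in the Cherry_negative AT2 cells. With 5% of the UMIs of each class taken as free RNA of the library profile and subtracted, none of the 18 ratios left its counting interval.

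Wnt2 and Fgf7 had the lowest ratios of the 7 genes in alveolar fibroblasts and Fgf18 the lowest in myofibroblasts, as described further on, and these genes are shown by sequence from the 250 bases before their RefSeq start site (GRCm38.p6), read 5′ to 3′ on the strand of the gene. Capitals mark matches, on either strand, to a CCAAT box (CCAAT) or a GC box (GGGCGG). The first is Fgf7 at chr2:126034408-126034657 on the plus strand, the next Wnt2 at chr6:18030586-18030695 on the minus strand and the last Fgf18 at chr11:33147401-33147650 on the minus strand.
Fgf7: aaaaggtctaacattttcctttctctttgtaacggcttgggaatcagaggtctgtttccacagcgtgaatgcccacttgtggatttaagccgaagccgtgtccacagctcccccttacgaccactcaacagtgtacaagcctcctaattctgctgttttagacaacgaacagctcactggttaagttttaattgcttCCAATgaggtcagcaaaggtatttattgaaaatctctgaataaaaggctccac
Wnt2: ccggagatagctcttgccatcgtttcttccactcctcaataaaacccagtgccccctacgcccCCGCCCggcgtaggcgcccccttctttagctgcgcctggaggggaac
Fgf18: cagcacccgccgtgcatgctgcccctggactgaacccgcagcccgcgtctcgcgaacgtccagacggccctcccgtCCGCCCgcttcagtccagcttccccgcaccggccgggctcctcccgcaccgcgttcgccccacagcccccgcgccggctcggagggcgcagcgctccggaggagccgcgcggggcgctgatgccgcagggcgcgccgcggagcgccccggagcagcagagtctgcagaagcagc
The Wnt2 run holds 110 bases, because GENCODE M21 starts the gene earlier and places the other 140 bases of the window in its first exon. The Fgf7 promoter was AT-rich, with 43.6% G and C and 6 CpG dinucleotides, while that of Wnt2 had 63.6% and 20 and that of Fgf18 had 77.2% and 37. The median over 32851 promoter windows of the same length was 52.4% and 6. A CCAAT box lay 53 bases before the start in Fgf7 and 74 bases before it in Wnt2, in the stretch not printed, and 33.9% of all promoters held one. A GC box lay in the Wnt2 and Fgf18 windows, and 32.7% of all promoters held one. None of the 3 windows held a TATA box (TATAAA, in 12.4% of promoters), an AP-1 site (TGANTCA, in 6.75%) or a gamma-activated site (TTCNNNGAA, in 7.02%) in these letters. Promoter windows were matched for 6 of the 7 genes.

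Of the 7 genes 6 were mesenchymal transcripts in both libraries, and Pdgfa was not. Mesenchymal cells held 97.8% of the Fgf7 UMIs of the Cherry_positive library and 94.7% of those of the Cherry_negative library. They held 97.1% of the Wnt2 UMIs of the Cherry_positive library and 93.2% of those of the Cherry_negative one. The share was 98.4% in the Cherry_positive library and 93.1% in the Cherry_negative one for Wnt5a, and 98.03% in the Cherry_positive library and 92.2% in the Cherry_negative one for Fgf10. Hgf was less restricted in the Cherry_negative library, with 94.5% of its UMIs in Cherry_positive mesenchymal cells and 70.2% in Cherry_negative ones, where endothelial cells held another 23.8%. Fgf18 had 97.1% of its Cherry_positive UMIs and 74.2% of its Cherry_negative UMIs in mesenchymal cells, and alveolar epithelial cells held 25.0% of the Cherry_negative ones. Pdgfa had 58.01% of its UMIs in mesenchymal cells of the Cherry_positive library, against 25.5% in the Cherry_negative library. Alveolar epithelial cells held 5.71% of the Pdgfa UMIs in the Cherry_positive library and 49.9% in the Cherry_negative library. These shares move with the number of cells of each class, which differed between the libraries as given above.

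**Figure D1:**
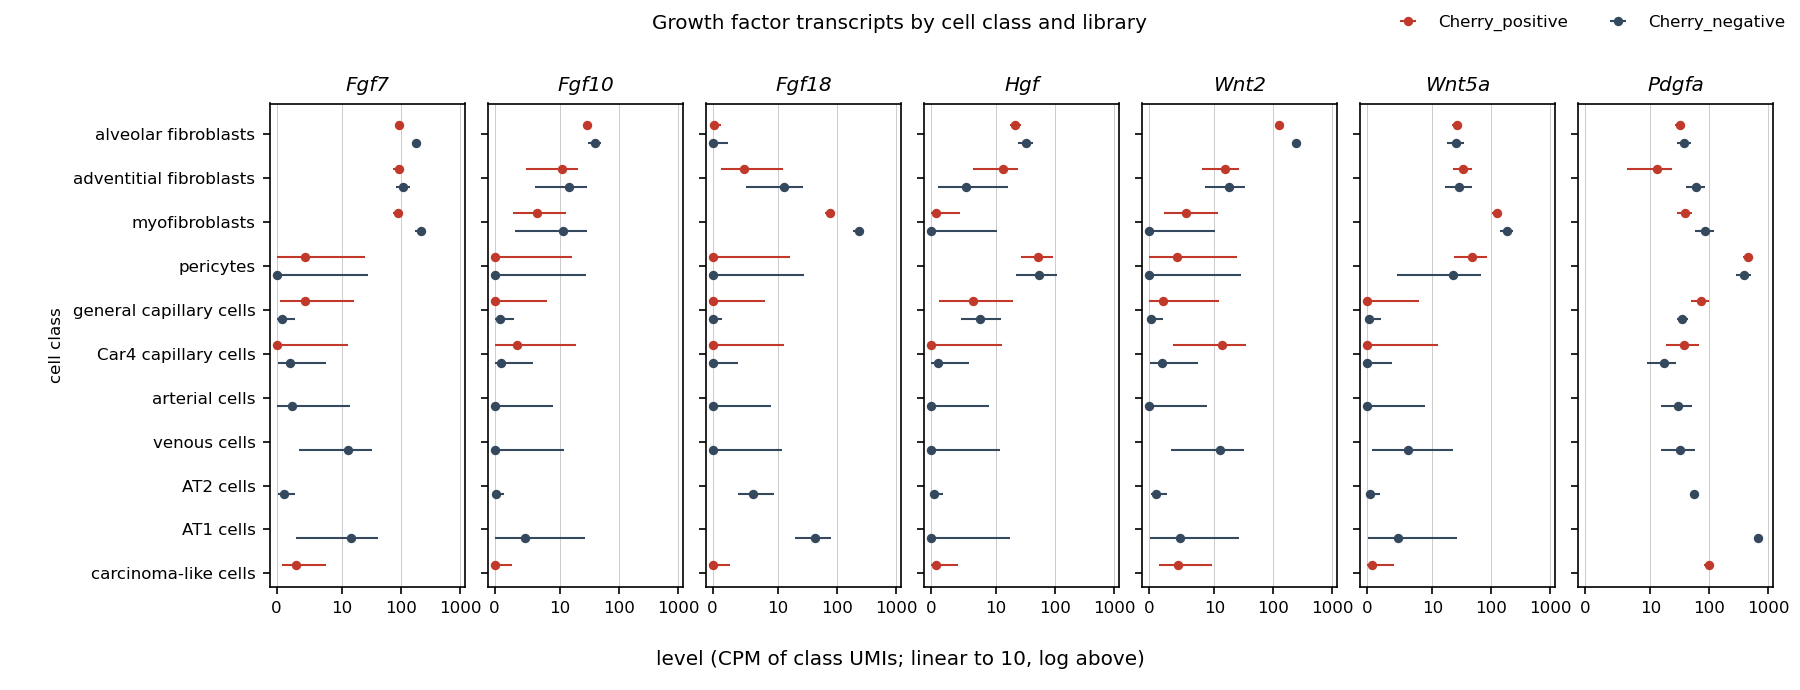
Level of each gene in CPM (horizontal axis, linear to 10 and logarithmic above) in each cell class with at least 50 cells in that library, with Cherry_positive cells in red above Cherry_negative cells in dark blue. Points are class sums and bars 95% counting intervals. Wnt2 is highest in alveolar fibroblasts, Fgf18 in myofibroblasts and Pdgfa in AT1 cells and pericytes.

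Fgf7 (chromosome 2, 126034658 to 126091185, GRCm38, plus strand), which encodes the keratinocyte growth factor, was carried by 3 classes. Its level was 93.6 CPM (84.9 to 103) in Cherry_positive and 177 CPM (157 to 199) in Cherry_negative alveolar fibroblasts. In myofibroblasts it was 89.8 CPM (73.9 to 108) in the Cherry_positive library and 215 CPM (170 to 269) in the Cherry_negative one. In adventitial fibroblasts, which surround vessels and airways, it was 91.1 CPM (71.9 to 114) in the Cherry_positive library and 108 CPM (82.5 to 139) in the Cherry_negative one. The 3 Cherry_positive classes thus had overlapping intervals, whereas among Cherry_negative cells the adventitial interval lay below those of the other classes. The ratio was 0.529 (0.453 to 0.618) in alveolar fibroblasts, 0.417 (0.309 to 0.565) in myofibroblasts and 0.843 (0.594 to 1.20) in adventitial fibroblasts, where the interval includes 1. An Fgf7 UMI was seen in 32.9% of Cherry_positive and 41.7% of Cherry_negative alveolar fibroblasts, at median depths of 4512 UMIs in Cherry_positive and 3113 UMIs in Cherry_negative cells. In general capillary cells, which should lack the gene, it was seen in 1.65% of Cherry_positive and 0.216% of Cherry_negative cells, at median depths of 3082 UMIs in Cherry_positive and 2236 UMIs in Cherry_negative cells. When each alveolar fibroblast was thinned to 2000 UMIs, 17.0% (14.5 to 19.7) of 848 Cherry_positive and 27.5% (23.1 to 32.2) of 389 Cherry_negative cells still held one.

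Fgf10 (chromosome 13, 118669791 to 118792115, plus strand), which encodes the mesenchymal ligand that directs lung budding, was a sparse transcript. It had 28.9 CPM (24.1 to 34.2) from 132 UMIs in Cherry_positive and 38.7 CPM (29.4 to 49.9) from 59 UMIs in Cherry_negative alveolar fibroblasts. Adventitial fibroblasts had 10.6 CPM in the Cherry_positive library and 14.4 CPM in the Cherry_negative one, and myofibroblasts had 6.41 CPM in Cherry_positive and 11.2 CPM in Cherry_negative cells. The ratio in alveolar fibroblasts was 0.746 (0.545 to 1.03), with an interval that includes 1. Both pericyte sums were 0, which allows up to 12.9 CPM in Cherry_positive and 22.7 CPM in Cherry_negative pericytes.

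Fgf18 (chromosome 11, 33117430 to 33147400, minus strand), whose product is known for alveolar and cartilage development, was a myofibroblast transcript. Its level was 76.1 CPM (61.6 to 93.1) from 95 UMIs in Cherry_positive and 235 CPM (187 to 291) from 84 UMIs in Cherry_negative myofibroblasts. The ratio was 0.325 (0.239 to 0.441), a 3.08-fold lower level in Cherry_positive cells. After thinning, 11.6% (7.83 to 16.3) of Cherry_positive and 38.1% (28.5 to 48.6) of Cherry_negative myofibroblasts held an Fgf18 UMI, while without thinning 24.7% of Cherry_positive and 40.2% of Cherry_negative ones did, at median depths of 4307 UMIs in Cherry_positive and 2448 UMIs in Cherry_negative cells. In AT2 cells of the Cherry_negative library the unthinned share was 4.46% at a median depth of 8154. Alveolar fibroblasts had next to none, with 1 UMI in 866 Cherry_positive cells and 0 UMIs in 451 Cherry_negative cells. A floor of 3 counts in those Cherry_negative cells would be 1.97 CPM. AT1 cells of the Cherry_negative library had 42.2 CPM (19.3 to 80.2) from 9 UMIs.

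Hgf (chromosome 5, 16553495 to 16620152, plus strand), which encodes the ligand of MET, was at 21.2 CPM (17.2 to 25.9) in Cherry_positive and 32.1 CPM (23.8 to 42.5) in Cherry_negative alveolar fibroblasts. Pericytes, the mural cells of capillaries, had 51.8 CPM (26.7 to 90.4) from 12 UMIs in the Cherry_positive library and 53.0 CPM (21.3 to 109) from 7 UMIs in the Cherry_negative one. General capillary cells had 3 UMIs, or 6.50 CPM, in the Cherry_positive library and 19 UMIs, or 7.58 CPM, in the Cherry_negative library. Hgf was all but missing from myofibroblasts, with 1 UMI in Cherry_positive and 0 UMIs in Cherry_negative cells. The alveolar fibroblast ratio was 0.660 (0.464 to 0.951), but the thinned share of cells gave 0.959, at 5.43% of Cherry_positive and 5.66% of Cherry_negative cells. Without thinning, 9.58% of Cherry_positive and 8.20% of Cherry_negative alveolar fibroblasts held an Hgf UMI, against 0.446% of Cherry_negative AT2 cells. The Hgf locus also overlaps 2 other annotated genes on its strand, so its count is less certain than the others.

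Wnt2 (chromosome 6, 17988940 to 18030585, minus strand) was an alveolar fibroblast transcript. It was at 126 CPM (116 to 137) from 576 UMIs in Cherry_positive and 241 CPM (217 to 267) from 368 UMIs in Cherry_negative alveolar fibroblasts, a ratio of 0.522 (0.457 to 0.597). The thinned share was 23.5% (20.7 to 26.5) in Cherry_positive and 36.3% (31.5 to 41.2) in Cherry_negative cells, a ratio of 0.647. Without thinning the share was 40.3% in Cherry_positive and 49.0% in Cherry_negative cells, and in general capillary cells, which should lack the gene, it was 0.826% in Cherry_positive and 0.108% in Cherry_negative cells. Adventitial fibroblasts had 15.4 CPM in the Cherry_positive library and 18.0 CPM in the Cherry_negative one, and 6 of the 10 Cherry_negative UMIs came from 1 cell. Myofibroblasts had 7 UMIs in the Cherry_positive library and 0 UMIs in the Cherry_negative one.

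Wnt5a (chromosome 14, 28504750 to 28527448, plus strand) was highest in myofibroblasts. Myofibroblasts had 123 CPM (105 to 145) in the Cherry_positive library and 182 CPM (140 to 231) in the Cherry_negative one, a ratio of 0.680 (0.506 to 0.923). That ratio was 0.985 when each library was clustered by itself. Adventitial fibroblasts had 33.1 CPM (22.0 to 47.9) in Cherry_positive and 28.8 CPM (16.5 to 46.8) in Cherry_negative cells. Alveolar fibroblasts had 26.2 CPM (21.8 to 31.4) in Cherry_positive and 24.9 CPM (17.6 to 34.2) in Cherry_negative cells, and the ratio of 1.05 (0.726 to 1.56) includes 1. Pericytes had 47.4 CPM from 11 UMIs in Cherry_positive and 22.7 CPM from 3 UMIs in Cherry_negative cells.

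Pdgfa (chromosome 5, 138976014 to 138997370, minus strand) was highest in AT1 cells and pericytes, and lower in Cherry_positive adventitial fibroblasts and myofibroblasts. AT1 cells had 454 CPM (248 to 761) from 5 cells in the Cherry_positive library and 680 CPM (574 to 801) in the Cherry_negative one. Pericytes had 453 CPM (370 to 548) in the Cherry_positive library and 386 CPM (287 to 508) in the Cherry_negative one, a ratio of 1.17 (0.832 to 1.67) that includes 1. AT2 cells had 94.3 CPM (54.9 to 151) in the Cherry_positive library and 54.7 CPM (47.4 to 62.8) in the Cherry_negative one. Alveolar fibroblasts had 31.3 CPM in the Cherry_positive library and 37.4 CPM in the Cherry_negative one. Their ratio of 0.837 (0.611 to 1.16) includes 1. In adventitial fibroblasts Pdgfa was at 13.0 CPM (6.49 to 23.3) from 11 UMIs in Cherry_positive and 59.4 CPM (40.9 to 83.5) from 33 UMIs in Cherry_negative cells. That ratio of 0.219 (0.0998 to 0.444) was the lowest of the 18. AT2 markers summed to 175 CPM in these Cherry_positive and 1795 CPM in these Cherry_negative adventitial cells, and AT1 markers to 75.7 CPM in the Cherry_positive and 106 CPM in the Cherry_negative ones. With 5% of free RNA subtracted as above, the ratio was 0.182. In myofibroblasts Pdgfa was at 38.5 CPM (28.4 to 51.0) in Cherry_positive and 83.8 CPM (56.5 to 120) in Cherry_negative cells, a ratio of 0.459 (0.285 to 0.750).

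**Figure D2:**
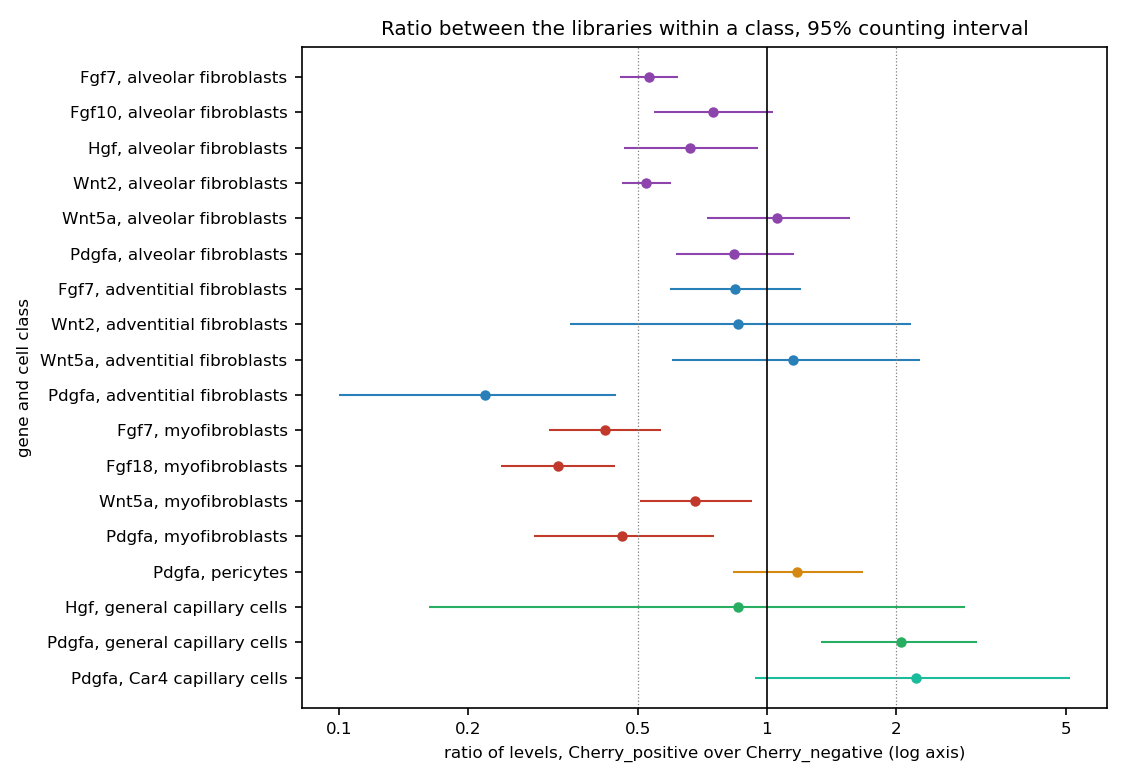
Ratio of levels, Cherry_positive over Cherry_negative, on a log axis for the 18 gene and class pairs with at least 20 UMIs, with 95% counting intervals as bars. The solid line marks equal levels and the dotted lines 2-fold differences. Pdgfa in adventitial fibroblasts (0.219) and Fgf18 in myofibroblasts (0.325) lie farthest to the left.

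Counts past 2-fold were read against all genes of the class. In alveolar fibroblasts 0 of the 6 measured genes were past 2-fold in either direction, while 6.88% of all genes were at least 2-fold higher and 6.97% at least 2-fold lower. Their median log2 ratio was -0.51, against -0.06 over all 10317 genes. In myofibroblasts 3 of 4 measured genes (Fgf7, Fgf18 and Pdgfa) were at least 2-fold lower and 0 higher, where 7.37% of all genes were lower and 7.92% higher. Their median log2 ratio was -1.19, against -0.06 over all genes. TMM scaling, which centres the bulk of genes, moved log2 ratios up by 0.12 for alveolar fibroblasts, by 0.19 for myofibroblasts and by 0.24 for pericytes. Relative to it the myofibroblast ratios were 0.371 for Fgf18, 0.478 for Fgf7 and 0.525 for Pdgfa, so Pdgfa was no longer past 2-fold. Thinned shares of cells also left Pdgfa short of 2-fold there, at 0.501. With each library clustered by itself the Fgf7 ratio in myofibroblasts was 0.571, and it too was not past 2-fold. Myofibroblast markers were also lower, at a summed 6783 CPM in Cherry_positive and 11516 CPM in Cherry_negative myofibroblasts, with 9 of 10 below a ratio of 1 and 3 at least 2-fold lower. Marker sums of other cell types went both ways in this class. Pericyte markers summed to 645.9 CPM in Cherry_positive and 413.4 CPM in Cherry_negative myofibroblasts. Haemoglobin genes summed to 153.1 CPM in Cherry_positive and 16.8 CPM in Cherry_negative ones. The 6 pan-endothelial markers summed to 66.5 CPM in Cherry_positive and 678.7 CPM in Cherry_negative myofibroblasts, and the 8 AT2 markers to 181 CPM in Cherry_positive and 2039 CPM in Cherry_negative ones, with none of either list at 0. The part of these other transcripts in the ratios beyond the subtraction of 5% free RNA was not tested. In adventitial fibroblasts 1 of 4 measured genes (Pdgfa) was at least 2-fold lower and 0 higher, against 4.51% of all genes lower and 3.79% higher. In pericytes Pdgfa, the 1 measured gene, was not past 2-fold, and 7.47% of all genes were at least 2-fold higher and 7.47% lower.

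The 866 Cherry_positive and 451 Cherry_negative alveolar fibroblasts were not spread alike over the 4 clusters of that class. Cluster 1, led by the alveolar fibroblast markers Slc7a10 and Tcf21, held 156 Cherry_positive and 333 Cherry_negative cells. Cluster 6, led by Tnfsf13b and C4b, held 210 Cherry_positive and 87 Cherry_negative cells. Cluster 7, led by chemokine and interferon-induced genes such as Cxcl10, Ccl2 and Cxcl9, held 282 Cherry_positive and 7 Cherry_negative cells. Cluster 8, led by Tfpi2, Tnc and Hmox1, held 218 Cherry_positive and 24 Cherry_negative cells.

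Wnt2 differed more between the clusters than between the libraries within clusters 1 and 6. In cluster 1 it was at 277 CPM (238 to 321) in Cherry_positive and 303 CPM (271 to 339) in Cherry_negative cells, a ratio of 0.913 (0.756 to 1.10). In cluster 6 it was at 149 CPM (127 to 173) in Cherry_positive and 114 CPM (82.9 to 153) in Cherry_negative cells, a ratio of 1.30 (0.928 to 1.86). Both intervals include 1, in contrast to the ratio of 0.522 over the whole class. Among Cherry_positive cells Wnt2 was at 64.4 CPM (52.9 to 77.6) in cluster 7 and 112 CPM (92.9 to 133) in cluster 8, which is 4.30-fold and 2.48-fold lower than in cluster 1. Over clusters 1 and 6 together, the ones with a class marker among their leading genes, the Wnt2 ratio was 0.776.

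Fgf7 was lower in Cherry_positive cells inside clusters 1 and 6 as well. It was at 128 CPM (102 to 159) in Cherry_positive and 184 CPM (159 to 212) in Cherry_negative cells of cluster 1, a ratio of 0.697 (0.532 to 0.907). In cluster 6 it was at 109 CPM (90.6 to 131) in Cherry_positive and 171 CPM (132 to 218) in Cherry_negative cells, a ratio of 0.639 (0.469 to 0.876). Cluster 7 had 79.0 CPM and cluster 8 had 80.6 CPM in Cherry_positive cells, so the spread between clusters was smaller than for Wnt2. Between the libraries the ratio was 0.502 (0.261 to 1.08) in cluster 8, which includes 1, and 2.30 (0.407 to 91.7) in cluster 7, where Cherry_negative cells held 1 UMI. The ratio over clusters 1 and 6 together was 0.644.

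Wnt5a went the other way in cluster 1, with 36.0 CPM from 23 UMIs in Cherry_positive and 12.4 CPM from 13 UMIs in Cherry_negative cells, a ratio of 2.90 (1.41 to 6.24). In cluster 6 it was at 57.4 CPM in Cherry_positive and 62.2 CPM in Cherry_negative cells. Cluster 7 had 7.61 CPM, which was 0.211 (0.0984 to 0.435) of the cluster 1 level within the Cherry_positive library. Over clusters 1 and 6 the Wnt5a ratio was 1.92, against 1.05 over the whole class. Hgf was at 34.4 CPM in Cherry_positive and 25.8 CPM in Cherry_negative cells of cluster 1, and the Cherry_positive cells of cluster 8 had 7.97 CPM, 4.32-fold lower than those of cluster 1. The 7 Cherry_negative cells of cluster 7 held 7 Hgf UMIs. Over clusters 1 and 6 the Hgf ratio was 0.983, against 0.660 over the whole class. Pdgfa was at 47.8 CPM (35.9 to 62.4) in Cherry_positive cells of cluster 8 and 26.6 CPM in those of cluster 1. The clusters rest on the other genes of these cells, so contrasts between clusters within a library are a description.

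**Figure D3:**
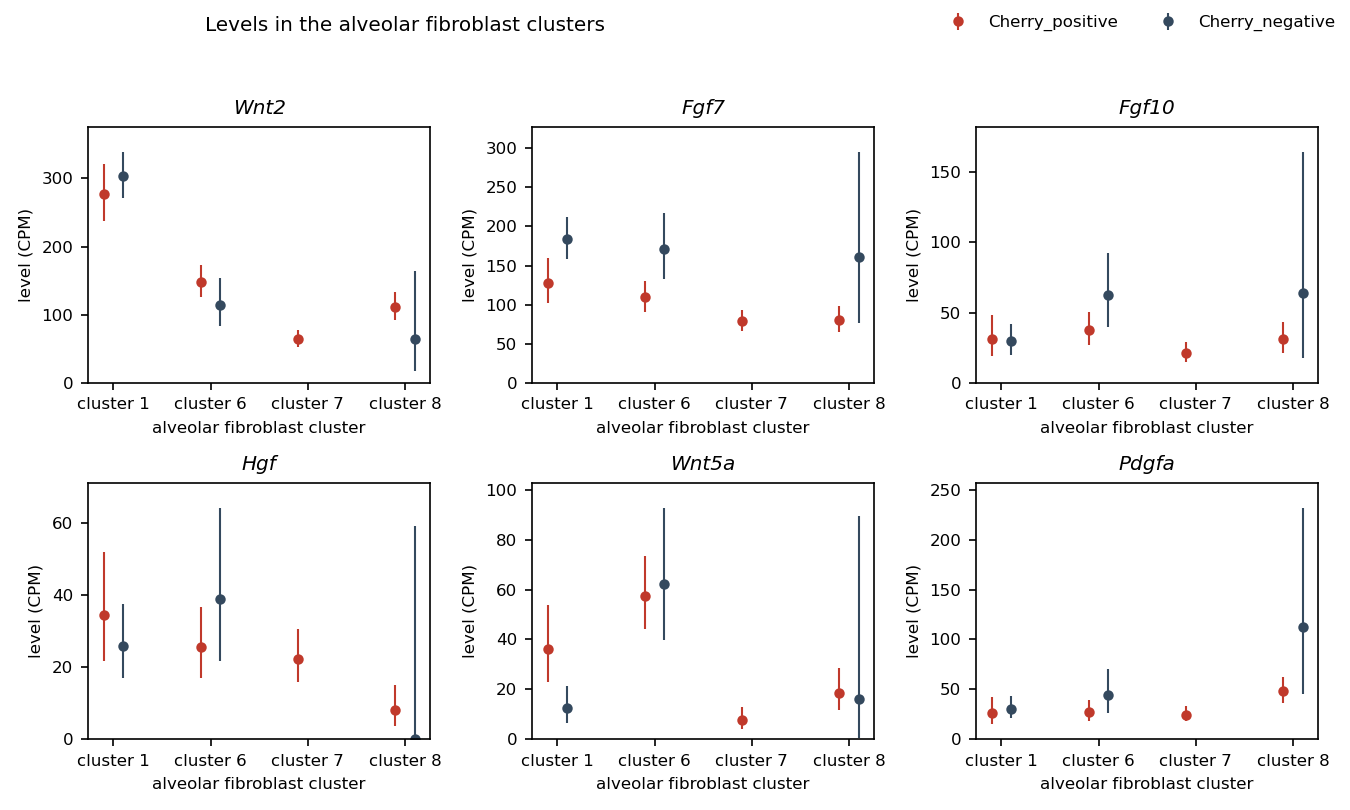
Level in CPM (vertical axis, linear from 0) of 6 genes in the 4 alveolar fibroblast clusters, with Cherry_positive cells in red left of Cherry_negative cells in dark blue and bars for 95% counting intervals. Groups under 20 cells are not drawn, so cluster 7 shows Cherry_positive cells alone. Wnt2 lies at 277 CPM in Cherry_positive and 303 CPM in Cherry_negative cells of cluster 1, while Fgf7 is lower in Cherry_positive cells of clusters 1 and 6.

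Capillary cells carried Pdgfa at levels below those of AT1 cells and pericytes. General capillary cells as a class had 71.5 CPM (49.2 to 100) from 33 UMIs in Cherry_positive and 34.7 CPM (27.8 to 42.8) from 87 UMIs in Cherry_negative cells, a ratio of 2.06 (1.34 to 3.10). The ratio was below 2 in other settings, at 1.94 without a cell filter, 1.80 with each library clustered by itself and 1.51 in thinned shares. Haemoglobin genes were 4 of the 10 leading genes of cluster 5, 1 of the 3 clusters of this class, so the clusters are given by number. Cluster 13, led by interferon-induced genes such as Ubd, Ido1 and Gbp4, had 185 CPM (124 to 265) in 35 Cherry_positive cells and 104 CPM (61.8 to 165) in 65 Cherry_negative cells. Cluster 0 had 1 UMI in 49 Cherry_positive cells and 39 UMIs, or 28.6 CPM, in 578 Cherry_negative cells. Cluster 5 had 3 UMIs in 37 Cherry_positive cells and 30 UMIs, or 31.0 CPM, in 282 Cherry_negative cells. Of the 33 Cherry_positive UMIs 29 lay in cluster 13, and without that cluster the ratio was 0.443, so the direction over the class rests on cluster 13. The ratio of 0.443 itself rests on the few Cherry_positive UMIs of clusters 0 and 5. The ratio was 1.77 (0.952 to 3.39) in cluster 13, 0.276 (0.0068 to 1.63) in cluster 0 and 0.544 (0.106 to 1.75) in cluster 5. Each of these intervals includes 1. Car4 capillary cells, the aerocyte-like capillary cells, had 37.3 CPM (18.6 to 66.7) from 11 UMIs in Cherry_positive and 16.7 CPM (9.54 to 27.1) from 16 UMIs in Cherry_negative cells, a ratio of 2.23 (0.937 to 5.12) that includes 1. In general capillary cells 1 of 2 measured genes (Pdgfa) was at least 2-fold higher and 0 lower, against 3.19% of all genes higher and 8.23% lower. In Car4 capillary cells the 1 measured gene (Pdgfa) was at least 2-fold higher, against 2.18% higher and 4.86% lower among all genes. Haemoglobin transcripts summed to 6344 CPM in Cherry_positive and 16.4 CPM in Cherry_negative general capillary cells, and to 9085 CPM in Cherry_positive and 32.3 CPM in Cherry_negative Car4 capillary cells. Their part in the Pdgfa values was not tested. Carcinoma-like cells had 97.0 CPM (81.2 to 115) of Pdgfa in the Cherry_positive library and 97.6 CPM (61.9 to 146) in the Cherry_negative one.

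Over whole libraries the direction depended on which cells were present. Cherry_positive over Cherry_negative, the library ratio was 1.71 for Fgf7, 2.30 for Fgf10, 1.78 for Hgf, 1.75 for Wnt2 and 2.85 for Wnt5a, but 0.946 for Fgf18 and 0.906 for Pdgfa. With the class shares of the Cherry_negative library applied to both, the ratio was 0.661 for Fgf7, 0.998 for Fgf10, 0.991 for Hgf, 0.605 for Wnt2, 1.16 for Wnt5a, 0.419 for Fgf18 and 1.21 for Pdgfa. With the class shares of the Cherry_positive library it was 0.537 for Fgf7, 0.742 for Fgf10, 0.749 for Hgf, 0.541 for Wnt2, 0.857 for Wnt5a, 0.333 for Fgf18 and 0.856 for Pdgfa. The direction for Wnt5a and Pdgfa thus depended on which shares were used. The Cherry_negative shares give weight to classes with few Cherry_positive cells, and no interval was computed for these ratios. Wnt5a had 1 UMI in the 22 Cherry_positive AT2 cells and 3 UMIs in the 5 Cherry_positive AT1 cells. Fgf10 had 1 UMI in those AT2 cells. The Wnt5a and Fgf10 ratios at Cherry_negative shares therefore rest in part on single UMIs. The higher library levels of Fgf7 and Wnt2 thus went with a larger share of fibroblasts, and their levels per fibroblast UMI were lower. The number of cells and the RNA per cell cannot be told apart in a whole-library level.

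Co-detection in single cells was limited by depth. At least 1 of the 7 genes was seen in 72.3% of the 866 Cherry_positive and 80.7% of the 451 Cherry_negative alveolar fibroblasts. Fgf7 and Wnt2 were seen together in 128 Cherry_positive and 91 Cherry_negative cells. Wnt2 was found in 44.9% of the Cherry_positive cells with Fgf7, against 40.3% of all Cherry_positive alveolar fibroblasts, and in 48.4% of the Cherry_negative cells with Fgf7, against 49.0% of all Cherry_negative ones. Other pairs lay further apart. Fgf7 was seen in 32.9% of all Cherry_positive and 41.7% of all Cherry_negative alveolar fibroblasts. Among cells with Fgf10 its share was 44.4% in Cherry_positive and 35.2% in Cherry_negative ones. Among cells with Wnt5a it was 40.8% in Cherry_positive and 58.1% in Cherry_negative ones, the latter from 31 cells.

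Of the 23 listed receptor genes, those for FGF7, FGF10 and HGF were highest in AT2 cells among the groups of at least 50 cells. Fgfr2, the receptor gene for FGF7 and FGF10, was at 153 CPM (141 to 166) in AT2 cells and 51.6 CPM in AT1 cells of the Cherry_negative library, and alveolar fibroblasts had 3.06 CPM in the Cherry_positive library and 7.21 CPM in the Cherry_negative one. Met, the HGF receptor gene, was at 55.0 CPM (47.7 to 63.1) in the same AT2 cells and at 0 UMIs in alveolar fibroblasts of both libraries. Fgfr3 was at 61.4 CPM (54.5 to 69.0) in Cherry_positive and 154 CPM (135 to 175) in Cherry_negative alveolar fibroblasts, and at 122 CPM in Cherry_positive and 143 CPM in Cherry_negative Car4 capillary cells. Pdgfra, the receptor gene for PDGFA, was at 256 CPM in Cherry_positive and 357 CPM in Cherry_negative alveolar fibroblasts, and at 118 CPM in Cherry_positive and 178 CPM in Cherry_negative adventitial fibroblasts. Pericytes, where Pdgfa was high, had 0 Pdgfra UMIs in both libraries and Pdgfrb at 664 CPM in the Cherry_positive library and 931 CPM in the Cherry_negative one. Ryk, which encodes a WNT5A receptor, was at 170 CPM in Cherry_positive and 243 CPM in Cherry_negative myofibroblasts, the class with most Wnt5a.

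**Figure D4:**
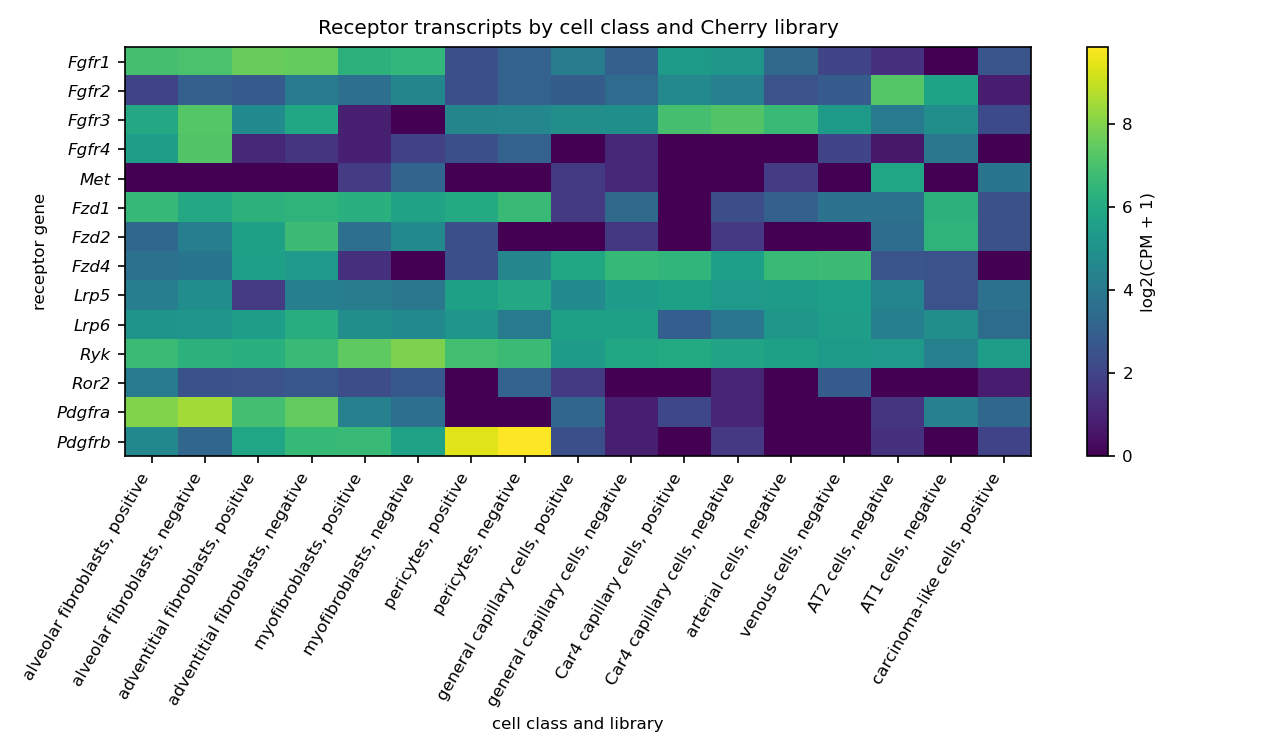
Level of 14 receptor genes, as log2(CPM + 1) in colour, across class and library groups of at least 50 cells, with the Cherry_positive column left of the Cherry_negative one. Fgfr2 and Met stand out in Cherry_negative AT2 cells, Pdgfra in fibroblasts and Pdgfrb in pericytes.

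Counts in the pathway lists are given beside the share of all genes past 2-fold in the same class, which in alveolar fibroblasts was 6.88% higher and 6.97% lower, with a median log2 ratio of -0.06. Of 18 measured receptor genes 4 were at least 2-fold higher and 3 at least 2-fold lower there, with a median log2 ratio of -0.22. Of these, Ror2, a WNT5A receptor gene, was at 16.2 CPM in Cherry_positive and 4.59 CPM in Cherry_negative cells, and Pdgfrb was at 23.2 CPM in Cherry_positive and 8.52 CPM in Cherry_negative cells. Fgfr4, which was also used as a marker of the class, was at 45.0 CPM in Cherry_positive and 146 CPM in Cherry_negative cells. Of the 22 other ligand genes 7 were measured, with 3 higher and 2 lower past 2-fold and a median log2 ratio of -0.32. Rspo3, a Wnt-enhancing R-spondin gene, was at 16.0 CPM in Cherry_positive and 4.59 CPM in Cherry_negative cells, and Fgf2 was at 36.1 CPM in Cherry_positive and 16.4 CPM in Cherry_negative cells. Rspo4 was at 3.94 CPM in Cherry_positive and 18.4 CPM in Cherry_negative cells. Of 10 FGF feedback and target genes 8 were measured, with 1 past 2-fold higher and 0 lower. The ratio was above 1 for 4 and below 1 for 4, and the median log2 ratio was -0.22. The gene past 2-fold was Spry2, an inhibitor induced by FGF signalling, at 126 CPM in Cherry_positive and 40.0 CPM in Cherry_negative cells. Its relative Spry1 was at 77.6 CPM in Cherry_positive and 139.6 CPM in Cherry_negative cells, and Dusp6, a phosphatase gene induced by FGF signalling, was at 70.2 CPM in Cherry_positive and 114 CPM in Cherry_negative cells. Etv1, a transcription factor gene downstream of FGF signalling, was at 20.8 CPM in Cherry_positive and 38.7 CPM in Cherry_negative cells. Of the Wnt secretion and target genes 9 were measured, with Nkd2 higher and Notum, an extracellular Wnt inhibitor, lower at 12.5 CPM in Cherry_positive and 35.4 CPM in Cherry_negative cells. Of the genes for HGF activators and their inhibitors 3 were measured, and 2 activator genes (Plat and Plau) were past 2-fold higher, with Plat, which encodes tissue plasminogen activator, at 163 CPM in Cherry_positive and 45.2 CPM in Cherry_negative cells. The third was the inhibitor gene Spint2, at 96.4 CPM in Cherry_positive and 160.6 CPM in Cherry_negative cells, which was lower but not past 2-fold. The Plau ratio of 2.89 (0.886 to 14.9) rests on 26 UMIs in Cherry_positive and 3 UMIs in Cherry_negative cells, and its interval includes 1. Of 8 measured heparan sulfate co-receptor genes 4 were higher and 0 lower, among them Sdc4 at 484 CPM in Cherry_positive and 208 CPM in Cherry_negative cells. The others, Sdc1, Sdc3 and Gpc4, rest on 5, 5 and 2 Cherry_negative UMIs.

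In myofibroblasts, where 7.92% of all genes were at least 2-fold higher and 7.37% lower, 1 of 9 measured receptor genes was at least 2-fold lower and 0 higher. Of 6 measured FGF feedback genes 1 was lower and 0 higher. That gene was Spry1, at 120 CPM in Cherry_positive and 274 CPM in Cherry_negative myofibroblasts. Heparan sulfate co-receptor genes had 3 higher of 7 measured, all on few Cherry_negative UMIs. Sdc3 was at 36.1 CPM from 45 UMIs in Cherry_positive and 8.38 CPM from 3 UMIs in Cherry_negative cells. Gpc1 had 21 UMIs in Cherry_positive and 1 UMI in Cherry_negative cells, and Gpc3 had 21 UMIs in Cherry_positive and 3 UMIs in Cherry_negative cells. In adventitial fibroblasts, where 3.79% of all genes were higher and 4.51% lower, 2 of 10 measured receptor genes were lower and 0 higher, with Fzd2, a Wnt receptor gene, at 48.5 CPM in Cherry_positive and 106 CPM in Cherry_negative cells. Of 5 measured FGF feedback genes 1 was past 2-fold higher and 1 lower, with a median log2 ratio of -0.27. The higher one was Spry2, at 74.5 CPM in Cherry_positive and 21.6 CPM in Cherry_negative adventitial cells, and the lower one was Spred2, an inhibitor of the same pathway, at 10.6 CPM from 9 UMIs in Cherry_positive and 25.2 CPM from 14 UMIs in Cherry_negative cells. In pericytes, where 7.47% of all genes were higher and 7.47% lower, 2 HGF genes were measured, with 1 past 2-fold higher and 1 lower. Plat was at 461 CPM from 107 UMIs in Cherry_positive and 189 CPM from 25 UMIs in Cherry_negative pericytes. Spint2 was at 43.1 CPM (20.7 to 79.3) from 10 UMIs in Cherry_positive and 90.8 CPM (46.9 to 158.6) from 12 UMIs in Cherry_negative ones. The Spint2 intervals overlap, so its direction is uncertain. Of 5 measured FGF feedback genes 1 was lower in pericytes, and that was Dusp6. It was at 47.4 CPM (23.7 to 84.9) from 11 UMIs in Cherry_positive and 121.1 CPM (69.2 to 196.6) from 16 UMIs in Cherry_negative cells, with overlapping intervals. In general capillary cells 1 receptor gene was higher and 1 lower of 9 measured, and 2 of 8 FGF feedback genes were lower and 0 higher, against 3.19% of all genes higher and 8.23% lower. Both rest on few Cherry_positive UMIs. Etv5 had 2 UMIs in Cherry_positive and 25 UMIs in Cherry_negative cells, with overlapping intervals of its levels, and Il17rd had 1 UMI in Cherry_positive and 46 UMIs in Cherry_negative cells. Of 3 measured HGF genes 2 (Plau and Spint2) were past 2-fold higher and 0 lower there.

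The genes whose levels were most like those of each growth factor gene were found by Pearson correlation of log2(CPM + 1) over 17 class and library groups, among 6332 genes. The groups share libraries and depth, so these values are a description. Fgf7 was most like Mamdc2 (0.95), Ogn and Apoe. Fgf10 was most like Cyp27a1 (0.95), Pcolce2 and Adamts15, and Fgf18 like Cyp2e1 (0.88), Klc3 and Prnp. Hgf was most like Wnt5b (0.90), Hsd11b1 and Hunk. Wnt2 was most like Mfap4 (0.86), a pan-mesenchymal marker used in naming, Adra1b and Ifi27l2a. Wnt5a was most like Ism1 (0.94), Nox4 and Col27a1, and Pdgfa like Fam134b (0.87), Ajuba and Snrnp70.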

How the data were processed

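The authors deposited raw UMI counts for each barcode and gene, made from Chromium 3' libraries per the labels. Tools named in the submitters' processing notes are Cell Ranger 2.1.1, Seurat 4.0.2 and R 4.0.3, with the build mm10 and no parameters beyond these. The genes, lists and class markers were chosen with earlier results of these data known.

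The counts were analysed in Python 3.11.15 using numpy 2.4.6, scipy 1.17.1, pandas 2.3.3 and scanpy 1.11.5. Filters of 500 genes and 10% mitochondrial UMIs removed 56 Cherry_positive and 50 Cherry_negative barcodes. Scrublet, at an expected rate of 2%, called 4 Cherry_positive and 7 Cherry_negative doublets (0.226% of Cherry_positive and 0.249% of Cherry_negative cells), too few for the calls to have worked, so doublets may remain. Cells were clustered with leidenalg 0.10.2 on 2000 variable genes without the 7 genes, 30 components and 15 neighbours at resolution 1. A cluster was named where at least 3 class markers were detected (10% of cells and 10% of the highest level) and its 10 leading genes, ranked by fold after adding 10 CPM to genes that reached 50 CPM, did not hold more markers of another lineage. Haemoglobin genes were not counted as a lineage, so cluster 5 kept its name with 4 of them and 1 class marker among its leading genes. Clusters 17 and 20 stayed unnamed, and the markers Gucy1b1, Ccl21a and Trac could not be used.

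Intervals were exact Poisson for class sums, Clopper-Pearson for shares of cells and, for ratios, derived from the binomial share of the UMIs, all at 95% and for counting error only. A count of 0 was set against a floor of 3 counts. Cells in the thinned shares were reduced to 2000 UMIs, leaving out shallower cells. The named genes were the 7, members of the pathway lists, and for each of the 7 the 3 genes most correlated with it, among genes of at least 50 CPM in a group. The computation was tested on simulated data. Gene positions came from GENCODE M21 and promoters from RefSeq. Figures were drawn with matplotlib 3.10.9.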

Additional observations from a re-analysis of the deposited data

Results flagged for a closer look

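The Pdgfa ratio lay on different sides of 1 in different classes, and the difference between classes was not tested, with 1 library per group. Its ratio, Cherry_positive over Cherry_negative, was 2.06 in general capillary cells, against 0.219 in adventitial fibroblasts and 0.459 in myofibroblasts. The general capillary ratio was 0.443 without cluster 13, so the difference in direction rests on that cluster. That 0.443 came from few Cherry_positive UMIs, 1 in cluster 0 and 3 in cluster 5. Within clusters 0, 5 and 13 taken singly, the interval of the ratio included 1. Pdgfa was also present in carcinoma-like cells, which no class comparison used, at 97.0 CPM in the Cherry_positive library.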

How the results depend on the processing

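No paired analysis was possible because each group has 1 library and no result comes from a test. The 18 ratios within classes moved by less than their counting intervals under TMM scaling, 5% of free RNA subtracted, other cell filters, doublet calls kept, resolution 0.5 and 2, means of per-cell shares, the growth factor genes allowed among the variable genes, and leaving out the cell with most UMIs. The same held without the barcodes found in both libraries, an alternative chosen after seeing the data. Thinned shares gave 0.959 for Hgf and 0.647 for Wnt2 in alveolar fibroblasts, and clustering each library by itself gave 0.571 for Fgf7 and 0.985 for Wnt5a in myofibroblasts. Fgf7 in adventitial fibroblasts had a thinned share ratio of 0.509, and Hgf in general capillary cells one of 0, as no thinned Cherry_positive cell held a UMI. Pdgfa came to 1.51 in general capillary cells, in thinned shares, and to 1.99 in Car4 capillary cells, with stricter cell filters, so neither was then past 2-fold. Keeping the clusters with a class marker among their leading genes, also chosen after seeing the data, gave 0.644 for Fgf7, 0.776 for Wnt2, 0.983 for Hgf and 1.92 for Wnt5a in alveolar fibroblasts, and turned Pdgfa in general capillary cells round to 0.443. Fixed class shares turned the library ratio of Fgf10 to 0.998 (Cherry_negative shares) and 0.742 (Cherry_positive shares) and that of Wnt5a to 0.857 (Cherry_positive shares), and Pdgfa came to 1.21 (Cherry_negative shares) and 0.856 (Cherry_positive shares). With genes of at least 1 UMI in place of 20, between 9.23% and 25.6% of genes were past 2-fold in a direction. Beyond the values given, the causes were not tested. Few UMIs limit the capillary values, those of Hgf, and the Wnt5a and Fgf10 library ratios at Cherry_negative shares.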
